A study of Arabidopsis thaliana with 2 samples.

Results

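The subject is mir164b, the precursor of the microRNA miR164b of Arabidopsis thaliana. Every sequence tag that the authors listed under the name mir164b was taken, counted by its deposited abundance. These were 52 of the 1755 distinct tags of the fiery library, with 1974 of its 33192 reads, and 2 of the 677 distinct tags of the wild-type library, with 17 of its 12129 reads. The precursor is 1 of 151 in the series. The fiery library came from plants of genotype fiery, a mutant for which the labels give neither gene nor allele, and the wild-type library from plants of ecotype Col-0. Each pooled 3 tissues, namely whole seedlings harvested at 2 weeks and the leaves and inflorescences of plants aged 5 weeks, grown at 23°C in days with 16 h of light, and no treatment is named. Because the tissues were mixed, their separate contributions cannot be told apart. With 1 library per genotype, no difference between them has a replicate check and no p-value is given. The assay does not measure the mutated gene, so the genotype labels had no check. All intervals are exact at the 95% level, by Clopper-Pearson for a share and by the conditional binomial for a ratio. They hold counting error alone, because the reads were amplified by PCR without molecular identifiers and are not independent molecules.

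miR164 guides the cutting of messenger RNAs of NAC transcription factors. Known targets in Arabidopsis are CUC1 and CUC2, which set the boundaries between organs, NAC1, which acts in lateral root formation, and ORE1, which promotes leaf ageing. A plant microRNA is cut from the stem of a folded precursor by the enzyme DICER-LIKE1, which frees a duplex of the guide strand and its partner from the opposite arm. The assay, SPARE, ligates an adaptor to free 5′ ends of RNA and copies the fragments with a primer placed downstream in each precursor, so each tag begins where an RNA was cut or had its 5′ end. Plants lacking FIERY1 are known for reduced activity of 5′ to 3′ exonucleases. Whether the labelled mutant is of that gene is not stated in the labels.

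The annotated precursor AT5G01747 lies on the plus strand of chromosome 5 (TAIR10.1, RefSeq annotation), outside any other annotated gene. The nearest annotated genes are the protein-coding AT5G01740, 6051 nt before it, and the long non-coding RNA AT5G00790, 592 nt after it. Its 153 nt are shown with the guide strand miR164b-5p and its partner miR164b-3p in capitals, since the cuts are described relative to them.
mir164b precursor, chr5:287584-287736: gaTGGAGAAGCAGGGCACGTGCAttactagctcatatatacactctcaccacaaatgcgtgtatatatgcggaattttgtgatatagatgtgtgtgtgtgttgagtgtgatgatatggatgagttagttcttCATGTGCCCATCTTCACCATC
The next lines give the guide strand with its seed (bases 2 to 8) in capitals, those of the other precursors of the family, and the partner strands with base 5 to the last in capitals. At base 5 began 103 fiery reads of mir164b and 2 wild-type reads of mir164c. Those 2 reads are too few to show an end shared by the family. The most frequent end inside miR164b-3p was at base 7, with 133 fiery reads.
miR164b-5p, chr5:287586-287606: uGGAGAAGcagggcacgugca
miR164a, chr2:19520770-19520790: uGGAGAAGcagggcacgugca
miR164c-5p, chr5:9852684-9852704: uGGAGAAGcagggcacgugcg
miR164b-3p, chr5:287716-287736: caugUGCCCAUCUUCACCAUC
miR164c-3p, chr5:9852747-9852767: cacgUGUUCUACUACUCCAAC
The guide strands of mir164a and mir164b are identical. That of mir164c differs from them by A21G, counted from the 5′ end with the base of miR164b-5p first, and all 3 share the seed. The partner strands of mir164b and mir164c are the same at 13 of 21 positions. In the RNAfold structure, 18 of the 21 nt of miR164b-3p were paired, the terminal loop had 4 nt (287656 to 287659), and each strand of the duplex ran 2 nt past its partner at its 3′ end. These pairings of miR164b-3p were the same in 3 folds with different lengths of flanking sequence. Those of the lower stem were less stable. Of the first 15 nt after miR164b-3p, only 5 kept the same partner, or stayed unpaired, in all 3 folds.

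A cut on the loop side of the duplex leaves a 5′ end at the first nucleotide of miR164b-3p, position 287716. A cut on the side of the stem base leaves its end directly after miR164b-3p, at position 287737. The main end of mir164b was the base-side cut in both libraries, at the same nucleotide. In fiery, 1460 reads began at position 287737, which was 74.0% (72.0 to 75.9) of the mir164b reads. In wild type, 16 of the 17 reads began there, or 94.1% (71.3 to 99.9). The fiery end was sharp, with 33 reads 1 nt before the position and 50 reads 1 nt after it. Of the fiery reads within 1 nt of the cut, 94.6% were at the exact nucleotide, close to the median of 95.3% over 22 other precursors. Each of these had at least 30 reads within 1 nt of its cut, at least 100 fiery reads in all and 1 annotated RNA on the 3′ arm. The next most frequent fiery end held 133 reads, so the main end was 11.0-fold above it. Main ends within 1 nt of the base-side cut were common: they were found for 71.4% of precursors in fiery (20 of 28 with at least 100 reads and 1 annotated RNA on the 3′ arm) and for 44.8% in wild type (26 of 58 with at least 10 reads). The main tags carry no base of miR164b-3p and begin with the lower stem.
fiery tag, 1460 reads, chr5:287737-287776: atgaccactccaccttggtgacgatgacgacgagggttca
wild-type tag, 16 reads, chr5:287737-287786: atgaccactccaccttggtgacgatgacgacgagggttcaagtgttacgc
They differ in length only because the fiery tags reach 40 nt and the wild-type tags 50 nt.

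**Figure D1:**
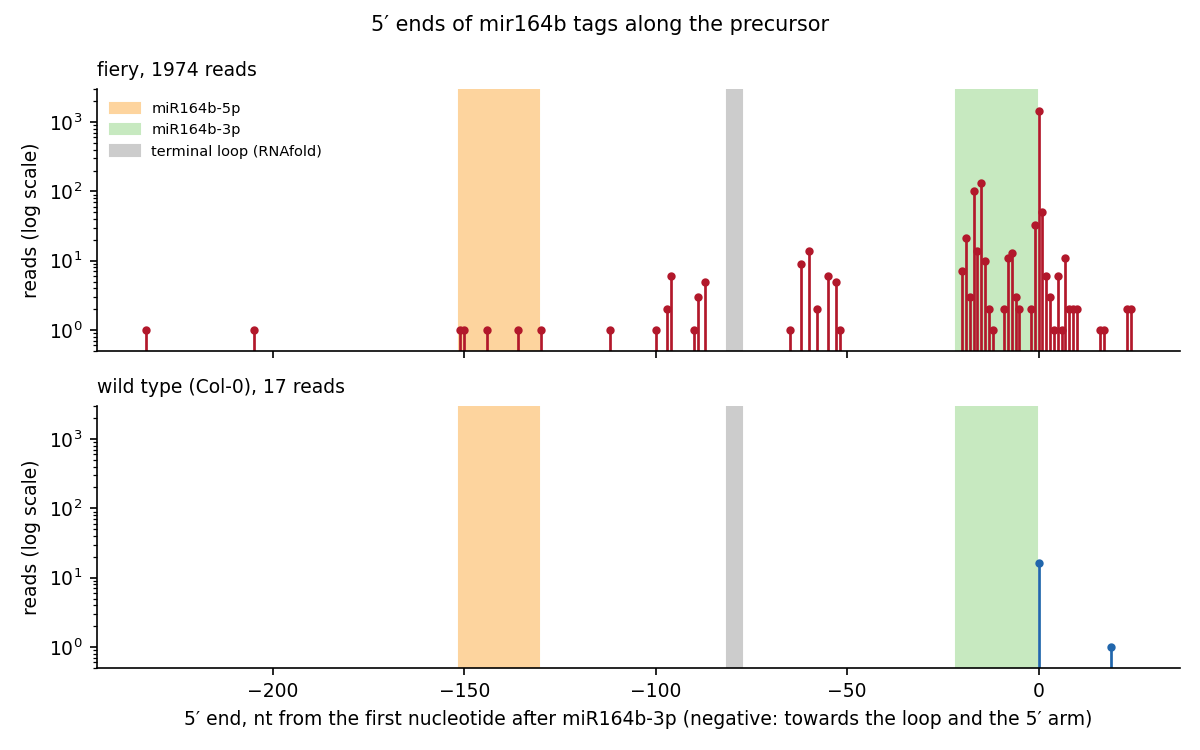
Reads of mir164b (log scale) by the position of their 5′ end, in nt from the first nucleotide after miR164b-3p, for the fiery library above and the wild-type library below. Shading marks miR164b-5p, the terminal loop and miR164b-3p. The highest line is at 0 in both libraries, with 1460 fiery and 16 wild-type reads, and in fiery the minor ends gather inside miR164b-3p and in 2 groups on either side of the terminal loop.

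Minor ends were numerous in fiery: 51 further positions shared 514 reads, of which 17 positions had a single read. Most of these reads began inside miR164b-3p. Between the windows of 1 nt around the loop-side and base-side cuts, 14 positions held 320 fiery reads, or 16.2% (14.6 to 17.9). They were not spread evenly, since 73.8% of them lay at 2 positions. Position 287722, at base 7 of miR164b-3p and 15 nt before the base-side cut, had 133 reads (6.74%). Position 287720, at base 5 and 17 nt before the cut, had 103 reads (5.22%). The position between them, 287721, had 14 reads, and position 287718, at base 3, had 21. A smaller pair of neighbouring ends at 287729 and 287730, bases 14 and 15, had 11 and 13 reads. The tags at the 3 most frequent of these ends are shown with the bases of miR164b-3p that were still joined to the lower stem in capitals.
287722, 133 reads, chr5:287722-287761: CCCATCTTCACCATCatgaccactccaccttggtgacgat
287720, 103 reads, chr5:287720-287759: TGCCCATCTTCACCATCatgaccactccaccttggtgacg
287718, 21 reads, chr5:287718-287757: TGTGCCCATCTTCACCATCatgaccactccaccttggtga
In each of them the base-side cut of the 3′ arm had not been made, and the bases before the read's start were missing. Wild type had no read inside miR164b-3p. For 0 of 17 reads the exact upper limit is 19.5%, above the 16.2% of fiery. A difference in these ends was not tested, and 17 reads are too few to decide it.

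**Figure D2:**
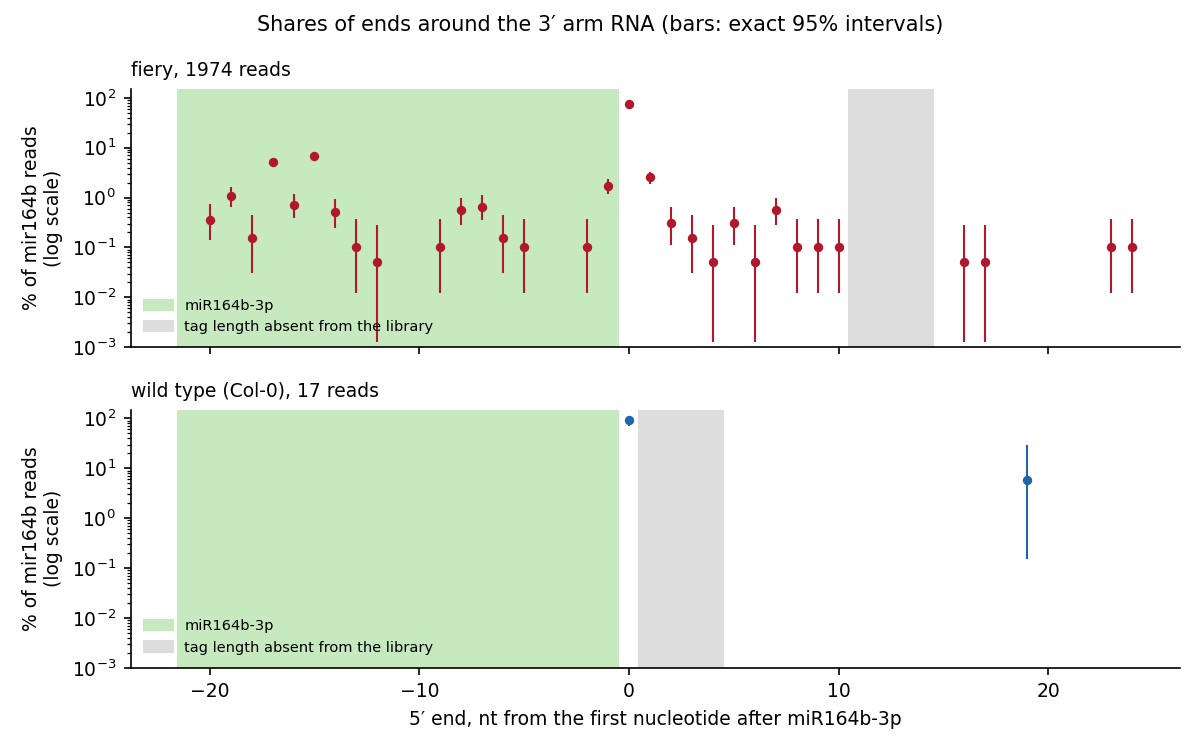
Share of mir164b reads (log scale) by 5′ end around miR164b-3p (green), in nt from the first nucleotide after it, with exact 95% intervals; fiery above, wild type below. Grey marks ends whose tags would have a length absent from the library. The fiery ends 15 and 17 nt before the cut, with 6.74% and 5.22%, stand above all others but the main end, and wild type has ends only at the cut and 19 nt after it.

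The loop-side cut was nearly without reads. No fiery read began at position 287716 itself, and 7 reads began 1 nt after it, at 287717. Loop-side reads were thus 0.452% (0.182 to 0.928) of the 1550 fiery reads within 1 nt of either cut. With a window of 2 nt, which takes in the 21 reads at 287718, this share was 1.77% (1.18 to 2.55), and at the exact positions it was 0 of 1460 reads. In wild type it was 0 of 16 reads, with an upper limit of 20.6%. In fiery, 24 other precursors with reads at either cut, at least 100 reads and 1 annotated 3′ arm RNA had a median share of 0.178%. Of these, 10 were above mir164b. A loop-side cut made while the base of the stem was intact would leave a loop-side end. The 7 reads at 287717 lie beside the more frequent ends inside miR164b-3p, and whether they came from such a cut was not tested. Both orders of cutting end in the base-side end, and the order therefore cannot be read from a low loop-side share.

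Ends nearer the loop fell mostly into 2 groups in fiery. On the 3′ arm, 7 positions between 287672 and 287685 held 38 reads, or 1.93% (1.37 to 2.63), with 14 reads at 287677, 39 nt before the loop-side cut. On the 5′ arm, 6 positions between 287637 and 287650 held 18 reads, or 0.912% (0.541 to 1.44), with 6 reads at 287641. The groups lay partly opposite each other in the fold, where 287641 pairs with 287673. No fiery read began between 287650 and 287672, a stretch that holds the terminal loop of 4 nt and parts of the stem on both sides. For the loop alone the exact upper limit is 0.187%.

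Few fiery reads began further upstream. Each of 4 positions within miR164b-5p had 1 read, and one of these positions was 287586, the first base of the guide strand. This tag ran from the guide strand into the upper stem, so the 5′ arm had an end at the base of the duplex while the loop-side cut of that arm had not been made.
287586, 1 read, chr5:287586-287625: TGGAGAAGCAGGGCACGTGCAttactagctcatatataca
Capitals mark miR164b-5p. A further single read began at 287607, the first base after miR164b-5p, where a loop-side cut of the 5′ arm would leave its end. Upstream of the annotated precursor, positions 287504 and 287532 had 1 read each. Single reads such as these are at the limit of the depth.

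Below the base-side cut, 13 positions from 287739 to 287761 held 40 fiery reads, or 2.03% (1.45 to 2.75). The highest was 287744 with 11 reads, 7 nt beyond the cut. In wild type, the single read outside the main end began at 287756, 19 nt beyond the cut, and no fiery read began at that position. Its tag was the following.
287756, 1 wild-type read, chr5:287756-287786: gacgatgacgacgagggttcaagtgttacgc
Tags of full length made up 99.4% of the mir164b reads in fiery and 94.1% in wild type. Short tags limited what could be seen next to the cut. Those from the lower stem ended at position 287786 in both libraries, 50 nt from the base-side cut. Fiery had no tags of 36 to 39 nt and wild type none of 46 to 49 nt, so that ends at 287748 to 287751 could not be seen in fiery and ends at 287738 to 287741 could not be seen in wild type. The positions unseen in wild type held 60 fiery reads, or 3.04%. No end beyond 287761 could be seen, since no tag was shorter than 26 nt. A further 6 fiery reads, in tags of 30 and 31 nt, ended at 287714. They began at 287684 and 287685, in the group of ends on the 3′ arm nearer the loop.

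Counted within 1 nt, the base-side share of mir164b was 78.2% (76.3 to 80.0) in fiery, against 94.1% (71.3 to 99.9) in wild type, a difference of -15.95 percentage points (fiery minus wild type). The intervals overlap. Without the positions that either library could not show, the shares were 78.0% (76.1 to 79.8) in fiery and 94.1% in wild type. Reads that began before that window were 391 of 1974 in fiery, or 19.8% (18.1 to 21.6), and 0 of 17 in wild type, with an upper limit of 19.5%. The fiery interval reaches below that limit, and a difference was not tested.

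The share of ends inside the 3′ arm RNA was high in mir164b among precursors with many fiery reads. Among 28 precursors with at least 100 fiery reads and 1 annotated RNA on the 3′ arm, its 16.2% was the second highest. Only mir825 was higher, with 42.7% (140 of 328 reads), followed below mir164b by mir472a with 8.93% and mir841 with 8.39%. Not all of these precursors had reads at the base-side cut: mir472a had 0% there, and mir405 had 100% of its reads below it. The median of the 27 others, with such precursors included, was 0.872%, with quartiles at 0.210% and 3.91%. The rank depended on this minimum: among 50 precursors with at least 30 fiery reads mir164b ranked 10, with mir870 highest at 94.1% of 68 reads, and the median of the 49 others was 1.67%. By its base-side share of 78.2%, mir164b was in the middle, at rank 13 of 28, and the median of the others was 75%. Its 3.24% of reads above the 3′ arm RNA ranked 8 of 28, against a median of 0.972%, and its 2.03% below the cut ranked 22, against a median of 6.36%. These ranks describe a single library and have no test.

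**Figure D3:**
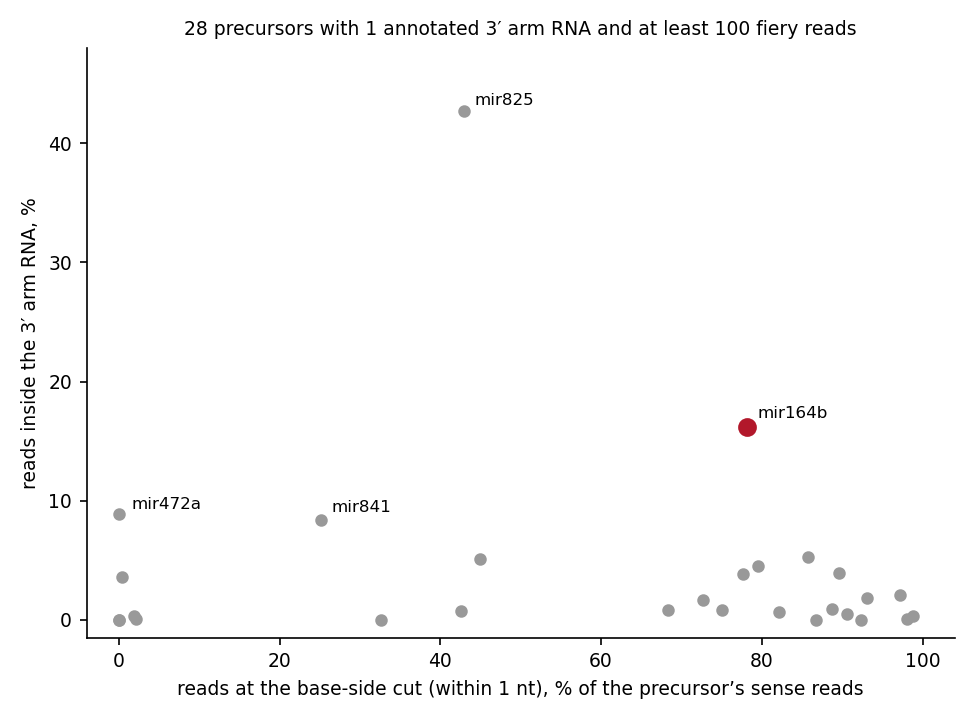
Share of fiery reads inside the annotated 3′ arm RNA (more than 1 nt from either cut) against the share within 1 nt of the base-side cut, for 28 precursors with at least 100 fiery reads and 1 annotated RNA on the 3′ arm. Each point is a precursor; mir164b (red) lies at 78.2% and 16.2%, with mir825 alone above it.

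The precursors with the most similar fiery profiles were found by the total variation distance between shares of reads in bins of 3 nt around the base-side cut, on a scale from 0 (identical) to 1 (no bin shared). They were mir398c (0.167), mir172b (0.172), mir158a (0.177), mir171c (0.182) and mir398b (0.184), and in each of these the most frequent end was at the base-side cut. The median distance over the 27 precursors was 0.221, so the nearest profiles were not far closer than the typical one. The share inside the 3′ arm RNA was between 1.86% (mir398b) and 5.30% (mir158a) in these 5, against 16.2% in mir164b. mir171c had 15.8% of its fiery reads at the loop-side cut, against 0.355% in mir164b. Over the 27 precursors the median at this cut was 0.0211%, and mir164b ranked 8 from the highest. In wild type, mir398b was at a distance of 0.0720 from mir164b (125 reads) and mir172b at 0.209 (191 reads), while mir398c was at 0.822 (45 reads, 17.8% of them at the base-side cut) and mir171c at 0.987 (75 reads, 1.33% at that cut). mir158a had 4 wild-type reads and gave no distance.

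**Figure D4:**
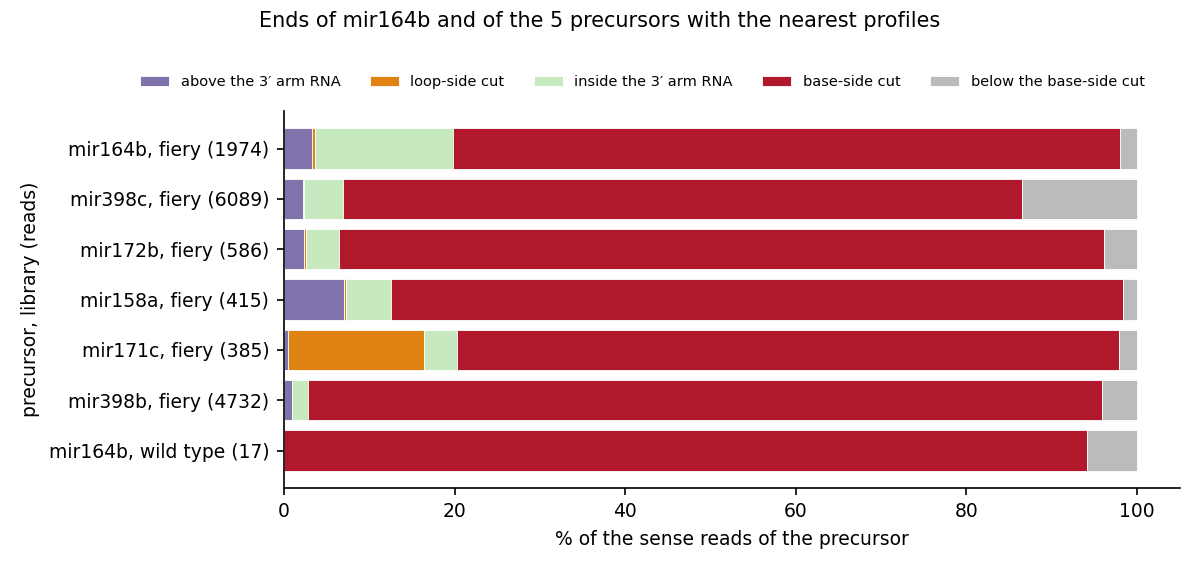
Shares of sense reads (%) by zone, from above the 3′ arm RNA to below the base-side cut, for mir164b and the 5 precursors with the nearest profiles in fiery, and for mir164b in wild type at the bottom; read numbers are in parentheses. In fiery mir164b, 78.2% is at the base-side cut and 16.2% inside the 3′ arm RNA, which in the 5 others holds 1.86% to 5.30%.

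As a share of all reads, mir164b held 5.95% (5.70 to 6.21) of the fiery library, where it was the fifth precursor by reads, and 0.140% (0.0817 to 0.224) of the wild-type library, where it ranked 59. Its neighbours in fiery were mir405 with 7.85% and mir779 with 5.59%, of which the interval of mir779 (5.35 to 5.84) overlaps that of mir164b and the interval of mir405 (7.56 to 8.14) does not. In wild type, 3 precursors including mir164b had 17 reads each and shared rank 59. Next to them, mir169m had 18 reads and mir825 had 16, and the intervals of both overlap that of mir164b. Each precursor was copied with its own primer, and the intervals do not cover differences between primers. The ranks and neighbours within a library therefore order read counts, not amounts of RNA. The ratio of shares was 42.4-fold higher in fiery (26.4 to 73.0, or 5.41 on the log2 scale). Of the 47 precursors whose reads summed to 100 or more over the 2 libraries, 40.4% were at least 2-fold and 19.1% at least 10-fold higher in fiery. mir164b ranked 4 of 47, between mir398c at 49.4 (36.9 to 67.9) and mir158a at 37.9 (14.7 to 140), whose intervals overlap that of mir164b. The size of the ratio depended on the counting and on the scaling. It was 19.9 (12.2 to 34.8) with tags longer than 35 nt and 10.03 (2.64 to 85.0) with distinct tags counted once. Divided by the median ratio of the 31 precursors that reached 30 reads in fiery and in wild type, it became 81.5. Tags of 35 nt or less were 22.4% of all fiery reads and 65.6% of all wild-type reads, and their part in the ratio beyond these values was not tested.

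**Figure D5:**
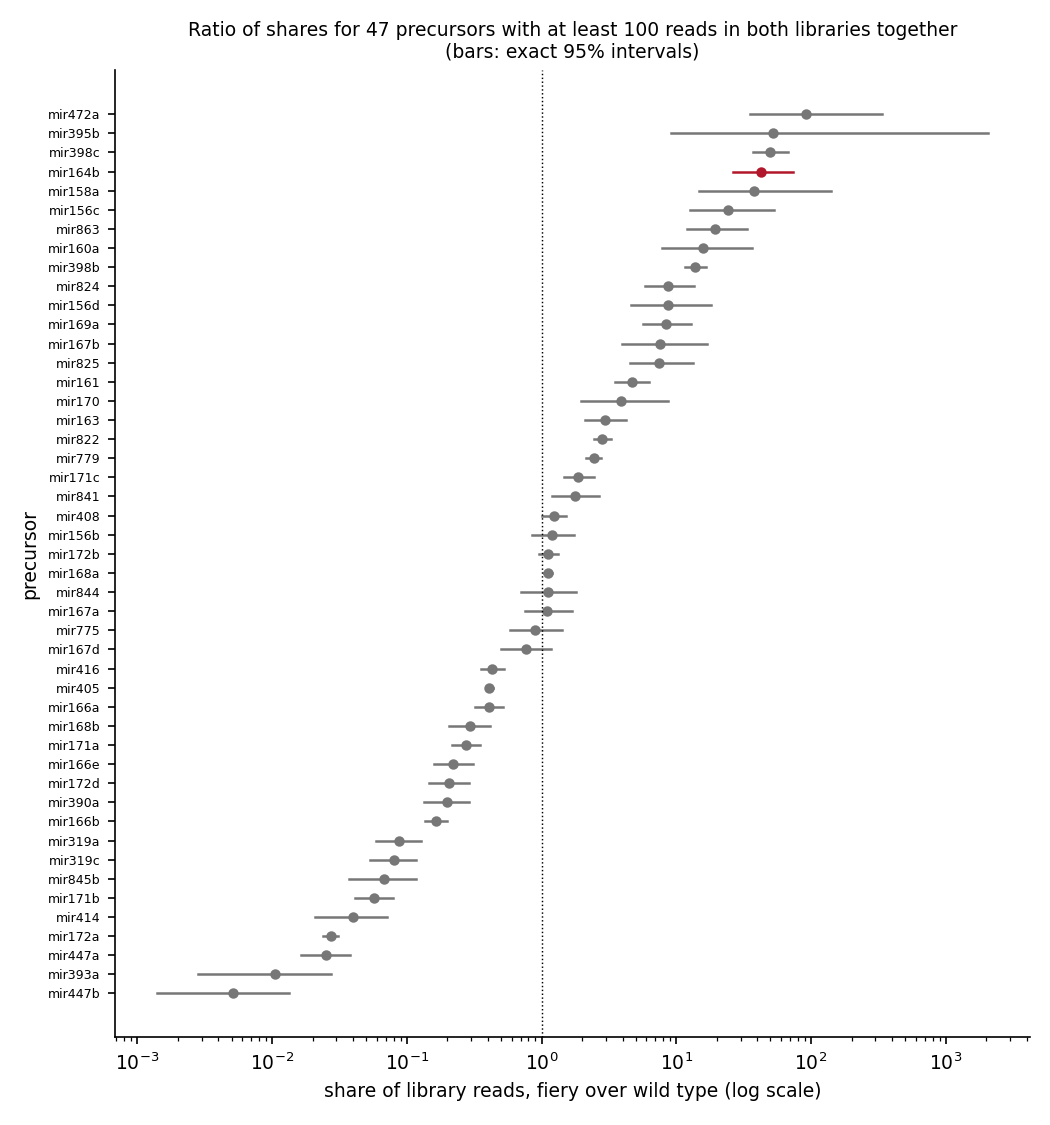
Ratio of library shares, fiery over wild type (log scale), for the 47 precursors with a summed count of 100 or more, with exact 95% intervals; the dotted line marks a ratio of 1. mir164b (red) is at 42.4 (26.4 to 73.0), rank 4 from the top.

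The other precursors of the family gave few reads, and their primers differ, so counts are compared within each precursor only. mir164c (AT5G27807) had 9 reads in fiery, all at position 9852768 of chromosome 5, the first nucleotide after miR164c-3p. In wild type it had 7 reads, of which 2 began at that position, 1 began 2 nt and 2 began 25 nt beyond it. The other 2 began at 9852751, base 5 of miR164c-3p, the same base at which 103 fiery reads of mir164b began in miR164b-3p. Its ratio of shares was 0.470 (0.156 to 1.48), an interval that holds 1. mir164a (AT2G47585) had no read in fiery, with an exact upper limit of 0.0111% of the library, and 7 reads in wild type. These began between 8 and 11 nt after the end of its annotated precursor (chr2:19520752-19520864), and no RNA is annotated on its 3′ arm to place them against.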

How the data were processed

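Per the labels' protocols, an RNA adaptor was ligated to 1 μg of RNA freed of ribosomal RNA, primers specific to each precursor copied it, and 18 cycles of PCR preceded gel purification and sequencing. The submitters' processing notes name Bowtie and TAIR10; versions and settings are not stated there. The deposited values are whole-number read counts per tag and precursor name, not normalised as far as the values show.

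All 2432 tags were matched exactly to TAIR10.1 on both strands, and of several matches the one closest to the precursor named was kept. All 54 mir164b tags matched once, in sense. Arms came from product names or, without one, from the side of the precursor's midpoint. The copies of mir405 were counted together. Cuts used a window of 1 nt. Shares, ratios and the profile distance are descriptions without a test between libraries. The precursors named were mir164a and mir164c, the 5 with the nearest profiles, and the neighbours by share and ratio; mir825, mir472a, mir841 and mir870 were added after their values were seen. The members and lists were chosen with earlier results of these data known. Interval code was tested on simulated data. RNAfold 2.7.2 gave the structures; intervals used scipy 1.17.1 with numpy 2.4.6 under Python 3.11.15, and tables and figures pandas 2.3.3 with matplotlib 3.10.9.

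Depth was 33192 fiery and 12129 wild-type reads, of which 1974 and 17 were of mir164b, so wild-type shares are coarse. Alternatives were other windows, tag lengths, library totals, scalings and counting of tags, and, chosen after seeing the data, counting only reads at the cut nucleotide, leaving out positions that either library could not show, 3 further settings for the difference in base-side share, and a minimum of 30 reads for the rank inside the 3′ arm RNA.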

Additional observations from a re-analysis of the deposited data

How the results depend on the processing

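The ratio of library shares for mir164b (42.4 in fiery over wild type) stayed above 1 under all 9 alternatives. It was 19.9 with tags longer than 35 nt and 81.5 relative to the median ratio of 0.520 over 31 precursors. With distinct tags counted once it was 10.03 (2.64 to 85.0), and elsewhere it moved within its interval. Leaving out other precursors, requiring 1 match or dividing by the median ratio kept all 1974 fiery and 17 wild-type reads of mir164b. These settings only rescaled the ratio, so staying above 1 under them is a weak check. With reads inside the annotated precursor only, wild type had 0 reads. With the floor of 3 counts in place of 0, fiery was 51.4-fold higher, a value without an interval. This setting leaves out the main end, which lies directly after the annotated precursor, so it cannot check the ratio at that end. The fiery base-side share (78.2%) was 74.0% at the exact position and 5.77% with distinct tags counted once. The wild-type share (94.1%) was 100% with tags longer than 35 nt, with full-length tags or without tags of 1 read, and 50% with distinct tags counted once. The fiery loop-side share (0.452%) was 0% at the exact position, 1.77% within 2 nt and 25% (1 of 4 tags) with distinct tags counted once. Counting tags once gives a cut with many reads the weight of 1 tag. The difference in base-side share (-15.95 percentage points) lay between -21.4 and -15.5 under 6 alternatives and was -44.2 with distinct tags counted once. The rank of mir164b by reads inside the 3′ arm RNA, 2 of 28, was 10 of 50 with a minimum of 30 reads. Of the 5 nearest profiles, 5 remained with a minimum of 30 reads and 4 with single positions. No paired analysis was possible because each genotype had 1 library, and for the same reason none could be left out. The 17 wild-type reads limit every wild-type share.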
